A study of Mus musculus with 18 samples.

Results

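Motor neurons depend on growth factors released by muscle, Schwann cells and neighbouring neurons, and 10 receptor genes through which they receive those factors were followed here: Ret, Gfra1, Ntrk2, Ntrk3, Ngfr, Lifr, Cntfr, Il6st, Igf1r and Met. Members were all probe sets whose single gene symbol was one of these, which gave 40 probe sets of 45037 that were not Affymetrix controls, and 10 genes of 18193. RNA from 18 mouse samples had been amplified with a T7-based linear method, per the labels, and measured on Affymetrix expression arrays, 1 array per sample. The 6 groups held 3 arrays each: ventral spinal cord tissue of wildtype mice, ventral spinal cord tissue of SOD1 mutant mice, spinal motor neurons of wildtype mice, spinal motor neurons of SOD1 mutant mice, facial nucleus motor neurons of wildtype mice and facial nucleus motor neurons of SOD1 mutant mice. All titles carry D60, which the labels do not explain, and the SOD1 allele, the strain, the age and the way in which motor neurons were picked were not given in the sources used here. Samples are not tied to animals or to separate dissections there either, so every p-value measures the spread between these arrays, which may be partly technical.

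Ret is the signalling tyrosine kinase of the GDNF family of ligands, and Gfra1 is the membrane-anchored co-receptor that binds GDNF and presents it to Ret. Ntrk2 (TrkB) is the receptor kinase for BDNF, Ntrk3 (TrkC) is its relative for another neurotrophin, and Ngfr binds all neurotrophins with low affinity. Lifr and Il6st form the signalling pair for leukaemia inhibitory factor, and Cntfr is the subunit that adds ciliary neurotrophic factor to the ligands of that pair. Igf1r is the kinase receptor of insulin-like growth factors and Met that of hepatocyte growth factor. Embryonic motor neurons are classically kept alive in culture by ligands of all these receptor families.

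Values are given on the log2(intensity + 16) scale after quantile normalization, so 1 unit is a doubling for bright probe sets, and changes of dim ones are understated. The 40th percentile of all probe sets, 7.65, was taken as near background. By their mean over the 18 arrays 27 of the 40 probe sets lay at or above it and 13 lay below. The bright ones were 2 of 2 for Ret, 3 of 3 for Gfra1, 6 of 8 for Ntrk2, 5 of 8 for Ntrk3, 1 of 3 for Ngfr, 1 of 3 for Lifr, 1 of 2 for Cntfr, 3 of 4 for Il6st, 4 of 5 for Igf1r and 1 of 2 for Met. No level of one probe set is set against that of another, because each has its own probes.

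Motor neuron and tissue arrays differed in more than their cells. The summed intensity of 10 motor neuron markers was 104000 to 116000 on the tissue arrays and 322000 to 423000 on the motor neuron arrays, while 9 astrocyte markers summed to 486000 to 571000 and 152000 to 202000 in the same order. The ratio of the 3′ to the 5′ probe sets of beta-actin, a measure of how far towards the 5′ end the amplified RNA reaches, was 1.56 to 1.78 on the 6 tissue arrays and 25.3 to 74.4 on the 12 motor neuron arrays. Median deposited intensity was 533 to 583 on the former and 286 to 341 on the latter. On wildtype spinal motor neuron replicate 1 the mean correlation with its own group was the lowest of all, 0.880.

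Upstream sequence is shown for Gfra1 and Lifr, whose brightest probe set was higher in motor neurons in all 4 comparisons described next. RefSeq (GRCm38.p6) gave a start site for 8 of the 10 members, in 14 windows, and the 250 bases before it are printed for Gfra1 (chr19:58455399-58455648, minus strand, 52.4% GC) and for the first Lifr start (chr15:7129322-7129571, plus strand, 82.4% GC). Capitals mark the GC box GGGCGG on either strand.
Gfra1: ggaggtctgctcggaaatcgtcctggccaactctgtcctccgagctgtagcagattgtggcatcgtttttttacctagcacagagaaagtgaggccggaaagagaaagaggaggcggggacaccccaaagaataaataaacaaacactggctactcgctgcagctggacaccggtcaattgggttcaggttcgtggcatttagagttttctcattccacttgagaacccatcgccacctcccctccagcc
Lifr: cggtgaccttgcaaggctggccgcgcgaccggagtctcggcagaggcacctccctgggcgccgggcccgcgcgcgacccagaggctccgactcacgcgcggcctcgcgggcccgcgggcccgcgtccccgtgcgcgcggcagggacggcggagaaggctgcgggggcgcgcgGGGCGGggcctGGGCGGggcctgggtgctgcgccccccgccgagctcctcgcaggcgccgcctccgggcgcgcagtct
The Lifr window held 2 GC boxes and the Gfra1 window none, against 32.7% of 32851 such windows with at least 1. Neither held the homeodomain core TAATTA, present in 4.84% of all windows, nor TATAAA, present in 12.4%. Searches covered both strands, and a match describes letters only.

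The first question was which receptors stood higher or lower in motor neurons than in ventral cord tissue. Ret, Gfra1 and Lifr were higher in motor neurons of both sites and both genotypes at their brightest probe set, by 1.94-fold to 9.19-fold. Another probe set of Ret and of Gfra1 was lower, and so were most called probe sets of Ntrk3 and Igf1r, whereas Ntrk2 and Il6st had bright probe sets in each direction. In wildtype spinal motor neurons 19 of the 29 members tested passed, 4 higher and 15 lower, where 47.7% of all 27022 tested probe sets did (25.1% higher and 22.6% lower). Mutant spinal motor neurons gave 19 of 28, 8 higher and 11 lower (all probe sets, 57.4%; 30.8% higher and 26.6% lower). Wildtype facial motor neurons gave 19 of 28, 7 higher and 12 lower (57.4%, 30.9% and 26.5%). Mutant facial motor neurons gave 21 of 30, 7 higher and 14 lower (55.3%, 30.1% and 25.3%). A fit left out its dimmest probe sets by their mean over both groups. Members bright only in tissue were therefore tested and could only come out lower. In wildtype spinal motor neurons these included Ntrk2 1420837_at, Ntrk3 1425071_s_at, Ngfr 1454903_at and Il6st 1460295_s_at and 1421239_at (group means 6.92, 6.59, 7.37, 7.39 and 7.05). Ntrk3 1447723_at, with a wildtype tissue mean of 7.58, could only come out higher in wildtype facial motor neurons. Groups did not overlap for 20, 21, 22 and 24 tested members in that order, against 60.4%, 65.7%, 66% and 64.5% of all tested probe sets, so differences of this kind were common on these arrays. The median difference of the members tested was −0.82, −0.66, −0.79 and −0.81, beside 0.04, 0.08, 0.09 and 0.11 over all tested probe sets. That median counts several probe sets for most genes. At the brightest probe set of each of the 10 genes the median was 0.20, 0.48, 0.27 and 0.30. Over all genes tested it was 0.20, 0.22, 0.19 and 0.23, and 6 of the 10 receptor genes were higher each time. Spinal and facial motor neurons were set against the same 3 tissue arrays of their genotype. Facial motor neurons came from the brainstem, per the labels, and no brainstem tissue was measured. At the facial site a difference of cell kind and one of region therefore cannot be told apart. In bulk RNA, fewer cells of a type and less RNA per cell cannot be told apart.

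**Figure D1:**
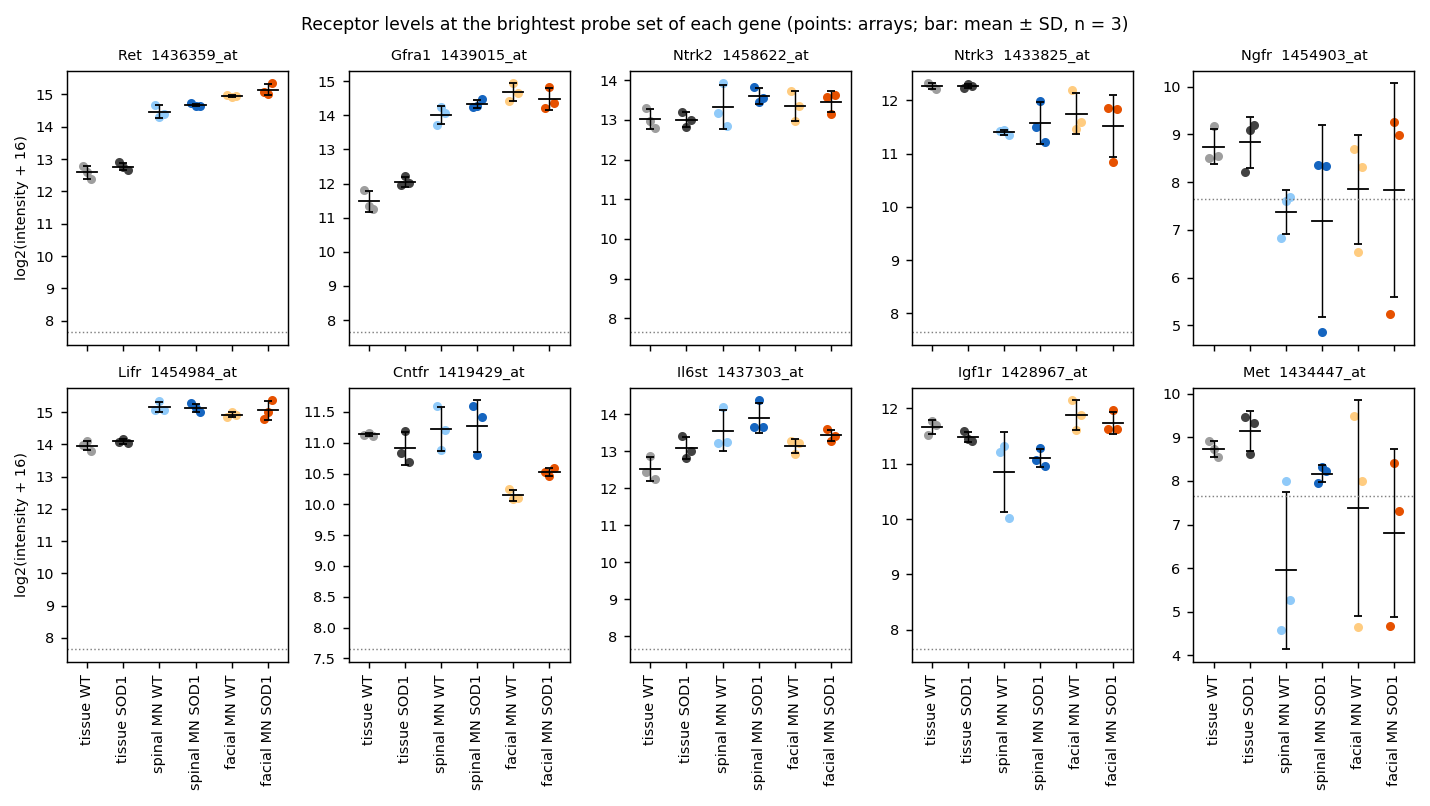
Level of each receptor gene at its brightest probe set, as log2(intensity + 16), on each of the 18 arrays by group, with the mean and SD of 3 arrays; the dotted line is the near-background level of 7.65. Ret, Gfra1 and Lifr lie higher on all 12 motor neuron arrays than on all 6 tissue arrays. Ngfr and Met lie above the line on all 6 tissue arrays and on both sides of it on motor neuron arrays.

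Ret (probe set 1436359_at) read 12.79, 12.60 and 12.39 in wildtype tissue and 12.90, 12.75 and 12.66 in mutant tissue. Spinal motor neurons read 14.68, 14.30 and 14.40 in wildtype mice and 14.72, 14.65 and 14.65 in mutant mice. Facial motor neurons read 14.97, 14.92 and 14.95 in wildtype and 15.07, 15.02 and 15.35 in mutant. The lowest motor neuron array thus lay above the highest tissue array, and the order of group means was wildtype tissue, mutant tissue, wildtype spinal, mutant spinal, wildtype facial, mutant facial. Wildtype and mutant arrays overlapped in tissue and in spinal motor neurons, while mutant spinal and wildtype facial motor neurons did not overlap. The difference from tissue was 1.86 in wildtype spinal motor neurons (3.64-fold, SE 0.17, adjusted p = 7.98e-05) and 1.91 in mutant ones (3.75-fold, SE 0.10, adjusted p = 7.55e-07). At the facial site the difference was 2.36 in wildtype (5.12-fold, SE 0.11, adjusted p = 1.93e-06) and 2.38 in mutant (5.19-fold, SE 0.13, adjusted p = 1.94e-06).

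The GDNF co-receptor Gfra1 (1439015_at) followed the same layout. Tissue arrays read 11.81, 11.35 and 11.26 in wildtype and 11.94, 12.22 and 12.01 in mutant. Spinal motor neurons read 13.71, 14.25 and 14.05 in wildtype and 14.24, 14.27 and 14.47 in mutant, and facial ones 14.42, 14.94 and 14.66 and then 14.22, 14.84 and 14.37. Every motor neuron array lay above every tissue array, the 2 tissue groups did not overlap, and mutant spinal, mutant facial and wildtype facial means of 14.33, 14.48 and 14.67 were neighbours with overlapping arrays. Gfra1 was higher than tissue by 2.53 in spinal motor neurons of wildtype mice (5.78-fold, SE 0.21, adjusted p = 5.96e-05) and by 2.27 in those of mutant mice (4.82-fold, SE 0.12, adjusted p = 8.72e-07). It was higher by 3.20 in wildtype facial (9.19-fold, SE 0.18, adjusted p = 4.45e-06) and by 2.42 in mutant facial motor neurons (5.34-fold, SE 0.18, adjusted p = 8.01e-06).

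Lifr (1454984_at) is the ligand-binding chain of the LIF receptor. It read 13.99, 14.10 and 13.80 in wildtype tissue and 14.07, 14.17 and 14.04 in mutant tissue. Motor neuron arrays spanned 15.07 to 15.35 in wildtype spinal, 15.02 to 15.27 in mutant spinal, 14.86 to 15.003 in wildtype facial and 14.80 to 15.38 in mutant facial samples. Tissue and motor neurons did not overlap, wildtype spinal arrays all lay above wildtype facial ones, and the mutant sites overlapped. Differences were 1.20 (2.30-fold, SE 0.14, adjusted p = 0.000272), 1.05 (2.07-fold, SE 0.09, adjusted p = 1.44e-05), 0.96 (1.94-fold, SE 0.09, adjusted p = 7.26e-05) and 0.96 (1.95-fold, SE 0.15, adjusted p = 0.000552) in the order wildtype spinal, mutant spinal, wildtype facial and mutant facial. The other probe sets of Lifr, 1450207_at and 1425107_a_at, had 18-array means of 6.92 and 6.44 and were not tested in any of these 4 comparisons. In a limma fit without the brightness filter, Lifr 1425107_a_at was called lower in mutant spinal motor neurons (−2.21, adjusted p = 0.0292). Its mutant tissue mean was 7.63, itself under near background. Ret, Gfra1 and Lifr at their brightest probe sets passed in all 18 alternative settings of each comparison, all scalings included.

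The brightest probe set of Il6st (1437303_at), the signalling chain shared by Lifr and Cntfr, read 12.44, 12.86 and 12.25 in wildtype tissue and 13.42, 12.83 and 13.01 in mutant tissue. It read 13.23, 14.20 and 13.26 in wildtype spinal, 13.67, 14.38 and 13.66 in mutant spinal, 13.28, 12.92 and 13.22 in wildtype facial and 13.59, 13.29 and 13.41 in mutant facial motor neurons. Replicate 2 of each spinal motor neuron group was the highest of its group, and mutant facial arrays overlapped mutant tissue. Il6st was higher by 1.04 in wildtype spinal (2.06-fold, SE 0.29, adjusted p = 0.0175), by 0.82 in mutant spinal (1.76-fold, SE 0.22, adjusted p = 0.0101) and by 0.62 in wildtype facial motor neurons (1.54-fold, SE 0.18, adjusted p = 0.0174). In mutant facial motor neurons the difference of 0.35 did not pass (95% interval −0.04 to 0.74, adjusted p = 0.116). The wildtype spinal call did not pass without wildtype tissue replicate 1 (adjusted p = 0.0571) or replicate 3 (adjusted p = 0.0670), and the wildtype facial call failed without either of these or without wildtype facial replicate 3 (highest adjusted p = 0.0659).

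Cntfr (1419429_at) read 11.13, 11.16 and 11.11 in wildtype tissue and 10.84, 11.20 and 10.69 in mutant tissue. Spinal motor neurons read 11.60, 10.88 and 11.20 in wildtype and 11.60, 10.80 and 11.42 in mutant, around the tissue levels. Wildtype facial motor neurons read 10.25, 10.09 and 10.10, below all tissue arrays, and mutant ones 10.52, 10.46 and 10.59. Cntfr was lower by 0.99 in wildtype facial motor neurons than in wildtype tissue (difference −0.99, 1.99-fold, SE 0.16, adjusted p = 0.00116). The other differences from tissue were 0.09 in wildtype spinal (95% interval −0.44 to 0.62), 0.37 in mutant spinal (−0.18 to 0.91) and −0.38 in mutant facial motor neurons (−0.84 to 0.07), and none passed. A dimmer Cntfr probe set, 1431663_a_at, was left untested in spinal motor neurons by the brightness filter. A limma fit without that filter called it lower in wildtype (−2.51, adjusted p = 0.0090) and mutant spinal motor neurons (−2.63, adjusted p = 0.0113). Its group means there were 6.17 and 6.01, under near background.

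Ntrk2, the BDNF receptor, had 6 bright probe sets, and they went apart. Probe set 1458622_at read 13.30, 12.97 and 12.79 in wildtype tissue, 13.20, 12.82 and 13.00 in mutant tissue, 13.18, 13.93 and 12.86 in wildtype spinal and 13.82, 13.44 and 13.54 in mutant spinal motor neurons. Facial motor neurons read 13.73, 12.97 and 13.34 in wildtype and 13.59, 13.16 and 13.63 in mutant, so only the mutant spinal group cleared its tissue without overlap. It was higher by 0.60 in mutant spinal motor neurons (1.51-fold, SE 0.14, adjusted p = 0.00586) and by 0.45 in mutant facial ones (1.37-fold, SE 0.17, adjusted p = 0.0457). The mutant facial call was lost without mutant tissue replicate 2 or 3 or mutant facial replicate 1 or 3, with an adjusted p of up to 0.163 over all settings. Wildtype differences were 0.30 (95% interval −0.33 to 0.94) and 0.33 (−0.16 to 0.81) in spinal and facial motor neurons and did not pass.

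Another Ntrk2 probe set, 1435305_at, was higher by 1.09 in mutant spinal motor neurons (2.13-fold, SE 0.16, adjusted p = 0.000373), by 0.52 in wildtype facial (1.43-fold, SE 0.13, adjusted p = 0.0085) and by 0.78 in mutant facial motor neurons (1.72-fold, SE 0.13, adjusted p = 0.000844). The wildtype facial call did not pass in a fit of all 18 arrays (adjusted p = 0.168). Wildtype spinal motor neurons read 11.76, 13.71 and 13.13 there, with replicate 1 far below the others, and their difference of 0.33 did not pass (adjusted p = 0.558). Without that array the difference was 0.88 and passed (adjusted p = 0.0134). Ntrk2 probe set 1420838_at went the other way: tissue arrays read 13.93 to 14.29 and motor neuron arrays 12.05 to 12.81, with no overlap, and the differences were −1.77, −1.91, −1.70 and −1.60 (wildtype spinal, mutant spinal, wildtype facial, mutant facial; highest adjusted p = 0.000141). Ntrk2 1435196_at was also lower, with differences of −2.40, −2.27, −1.31 and −1.13 in the same order, with a highest adjusted p of 0.000303. With arrays scaled to a common median its mutant facial difference was −0.31 and did not pass (adjusted p = 0.136).

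Ntrk3 (1433825_at) read 12.32, 12.28 and 12.21 in wildtype tissue and 12.23, 12.31 and 12.27 in mutant tissue. Motor neurons read 11.43, 11.44 and 11.34 in wildtype spinal, 11.50, 11.995 and 11.22 in mutant spinal, 12.19, 11.45 and 11.60 in wildtype facial and 11.85, 10.84 and 11.84 in mutant facial samples, all below tissue. The receptor was lower by 0.87 in wildtype spinal (difference −0.87, SE 0.17, adjusted p = 0.00305), by 0.70 in mutant spinal (−0.70, SE 0.20, adjusted p = 0.0136) and by 0.76 in mutant facial motor neurons (−0.76, SE 0.26, adjusted p = 0.0357). In wildtype facial motor neurons −0.52 did not pass (adjusted p = 0.0531). Scaling arrays to a common median left these differences at −0.42, −0.14 and −0.16 and none of the 3 passed, and leaving out any mutant tissue array ended the mutant facial call. Probe sets 1422329_a_at and 1425071_s_at of Ntrk3 were lower in all 4 comparisons, with differences of −1.73 to −3.02 and −1.70 to −3.96.

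Against these, Ntrk3 1447723_at was near background in tissue (7.79, 8.64 and 6.31 in wildtype, 8.78, 6.90 and 8.20 in mutant) and higher in 3 of the 4 motor neuron groups. Mutant spinal motor neurons read 11.45, 9.86 and 10.58, wildtype facial 10.92, 10.29 and 10.48 and mutant facial 9.84, 11.35 and 11.43, all above their tissue. The differences were 2.67 (SE 0.53, adjusted p = 0.00213), 2.98 (SE 0.56, adjusted p = 0.00236) and 2.91 (SE 0.56, adjusted p = 0.00203). Wildtype spinal motor neurons read 6.60, 8.81 and 9.23, overlapped tissue and did not pass (difference 0.63, adjusted p = 0.572).

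Ngfr, which motor neurons are known to express in the embryo and to switch on again after axon injury, was dim. Its probe set 1454903_at read 8.52, 9.17 and 8.55 in wildtype tissue and 8.22, 9.08 and 9.20 in mutant tissue. Motor neuron arrays scattered from 4.86 to 8.36 in mutant spinal and from 5.25 to 9.26 in mutant facial samples, with SDs of 2.01 and 2.24. Of the 4 differences only that of wildtype spinal motor neurons passed (−1.37, SE 0.48, adjusted p = 0.0458), and it failed in 8 of 16 alternative settings, among them leaving out any wildtype tissue array (highest adjusted p = 0.209 of these) or wildtype spinal replicate 1 (adjusted p = 0.0503). The other Ngfr probe sets had 18-array means of 5.83 and 5.10 and were below the filter throughout.

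Igf1r 1428967_at read 11.52, 11.78 and 11.69 in wildtype tissue and 11.60, 11.44 and 11.41 in mutant tissue. Spinal motor neurons read lower, 11.21, 11.32 and 10.02 in wildtype and 11.06, 11.28 and 10.96 in mutant, and facial ones 12.15, 11.62 and 11.88 and 11.63, 11.96 and 11.63. None of the 4 differences passed: −0.82 (95% interval −1.61 to −0.03, adjusted p = 0.0829), −0.38 (−0.75 to −0.02, adjusted p = 0.0702), 0.22 (−0.18 to 0.61) and 0.26 (−0.12 to 0.64). Replicate 3 was the low array of the wildtype spinal group. A second Igf1r probe set, 1452982_at, was lower in all 4 comparisons (−1.11, −0.95, −0.78 and −0.86, highest adjusted p = 0.0171), and a common median left the last 3 at −0.49, −0.28 and −0.35 without a call. The wildtype facial call was also lost without wildtype tissue replicate 2.

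Met (1434447_at) read 8.91, 8.74 and 8.54 in wildtype tissue and 9.48, 8.61 and 9.33 in mutant tissue. Its motor neuron arrays were uneven: 4.59, 7.9994 and 5.26 in wildtype spinal, 7.96, 8.32 and 8.23 in mutant spinal, 9.48, 4.64 and 7.998 in wildtype facial and 4.68, 8.41 and 7.32 in mutant facial samples. Met was lower than tissue by 0.97 in mutant spinal (difference −0.97, SE 0.35, adjusted p = 0.0397) and by 2.33 in mutant facial motor neurons (−2.33, SE 0.86, adjusted p = 0.0436). The former call failed in 6 of 16 settings, among them without mutant tissue replicate 1 or 3 or mutant spinal replicate 1, and the latter in 6 of 14, among them without mutant tissue replicate 2 or mutant facial replicate 3. Wildtype spinal motor neurons, with a group mean of 5.95, were left untested by the brightness filter; without it the difference there was −2.78 and passed (adjusted p = 0.0371), as it did in the fit of all 18 arrays (adjusted p = 0.0369). In wildtype facial motor neurons −1.36 did not pass (95% interval −3.86 to 1.15).

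Of the remaining probe sets, Ntrk2 1437560_at was higher in mutant spinal (0.88, SE 0.20, adjusted p = 0.00319) and mutant facial motor neurons (0.81, adjusted p = 0.0156). The mutant facial call was lost in 4 of 17 alternative settings, those without mutant tissue replicate 2, without mutant facial replicate 1 or 3 and with all 18 arrays in one fit (highest adjusted p = 0.0588). Gfra1 1421973_at was higher in wildtype facial motor neurons (1.27, adjusted p = 0.0112), a call lost with values as deposited and in the fit of all 18 arrays (highest adjusted p = 0.241). Igf1r 1426565_at was lower in wildtype spinal (−0.81), wildtype facial (−0.79) and mutant facial motor neurons (−0.70, adjusted p = 0.0399), and −0.66 did not pass in mutant spinal ones (adjusted p = 0.0517). Its wildtype spinal call was lost in 3 of 17 settings, 2 of them without wildtype tissue replicate 1 or 2, and its wildtype facial call without wildtype tissue replicate 2 (adjusted p = 0.0531). Its mutant facial call was lost in 7 of 17, among them without mutant tissue replicate 1 or 3 or mutant facial replicate 1 or 3 (highest adjusted p = 0.153). Ntrk3 1455917_at was lower in wildtype spinal motor neurons (−0.96, adjusted p = 0.0424), but the call was lost in 7 of 17 settings, among them without any of the wildtype tissue arrays or without wildtype spinal replicate 1 or 3 (highest adjusted p = 0.139).

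Il6st 1421239_at, Ntrk2 1420837_at and Cntfr 1431663_a_at read 8.63 to 10.03 as tissue group means and 5.51 to 7.39 as motor neuron group means, and were called lower in 3, 3 and 1 of the comparisons. The Il6st probe set lost its wildtype spinal call without wildtype tissue replicate 1 or 3 (highest adjusted p = 0.0743) and its wildtype facial call without any wildtype tissue array (highest adjusted p = 0.107). The wildtype facial call of the Cntfr probe set was lost in 6 of 15 settings, among them without any wildtype tissue array or without wildtype facial replicate 2 (highest adjusted p = 0.163). Ntrk2 1446712_at and Igf1r 1446303_at and 1452108_at were tested in at least 1 comparison and not called. Where Igf1r 1446303_at was untested, a fit without the brightness filter called it lower in mutant spinal (−2.48, adjusted p = 0.00528) and wildtype facial motor neurons (−2.53, adjusted p = 0.00455). In mutant facial ones it did not pass (−1.14). Ntrk3 1425070_at, 1426003_at and 1443970_at, Ntrk2 1444121_at and Met 1422990_at were not tested in any. Ntrk3 1425070_at had means of 8.46 and 8.86 in tissue and 4.79 to 5.37 in motor neurons, and passed in all 4 comparisons without the brightness filter (differences of −3.68, −3.49, −3.37 and −3.65). That fit called 3, 6, 3 and 1 of the 11, 12, 12 and 10 untested members, all lower in motor neurons.

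**Figure D2:**
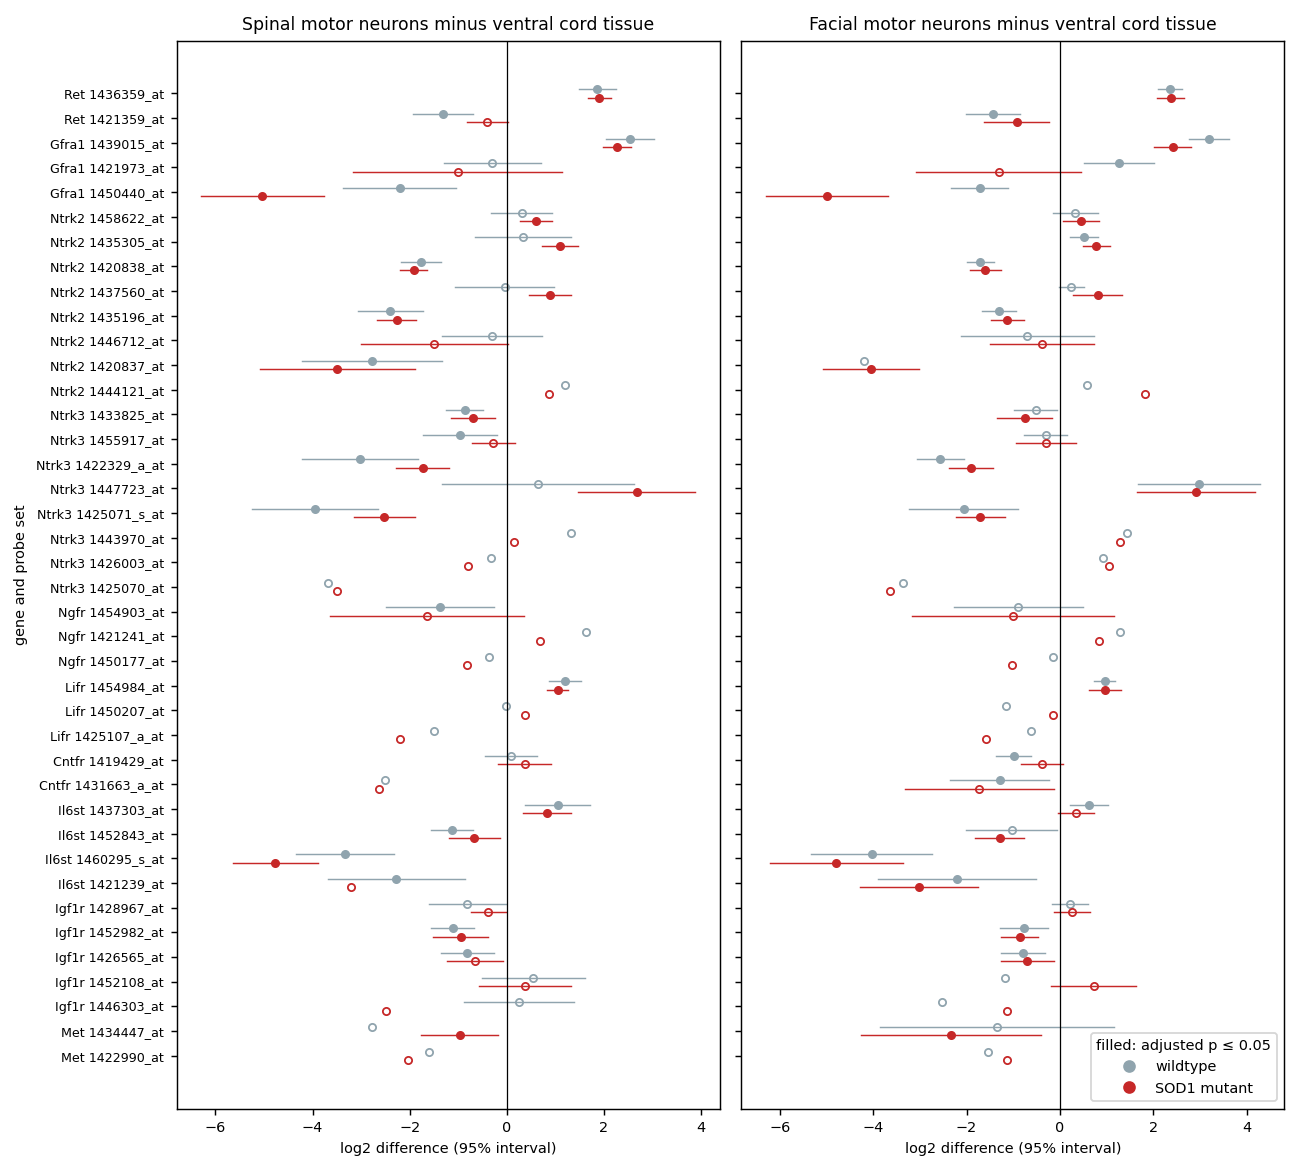
Difference between motor neurons and ventral cord tissue (log2 scale) for all 40 probe sets of the 10 receptor genes, spinal on the left and facial on the right, with 95% intervals; filled points passed an adjusted p of 0.05, and open points without a line were below the brightness filter. Only Ret, Gfra1 and Lifr have a probe set with filled points to the right of 0 in all 4 comparisons. Ret, Gfra1, Ntrk2, Ntrk3 and Il6st have filled points on both sides.

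Several genes therefore gave called probe sets in opposite directions within one comparison. In wildtype spinal motor neurons these were Ret, Gfra1 and Il6st, in mutant spinal ones Gfra1, Ntrk2, Ntrk3 and Il6st, in wildtype facial ones Ret, Gfra1, Ntrk2, Ntrk3 and Il6st, and in mutant facial ones Ret, Gfra1, Ntrk2 and Ntrk3. Among all genes with at least 2 tested probe sets, 14.3%, 20.1%, 20.3% and 17.9% did so in the same order. That share is not matched for the number of tested probe sets, which was 6 or 7 for Ntrk2 and 5 for Ntrk3. Ngfr and Lifr had 1 each and could not show opposite calls. The beta-actin ratio given above moved with every one of these comparisons, and its part in the disagreement was not tested. Where on the transcript each probe set lies was not used here.

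Ret 1421359_at read 10.66, 10.77 and 10.79 in wildtype tissue and 9.05, 9.58 and 9.65 in wildtype spinal motor neurons, a difference of −1.32 (SE 0.27, adjusted p = 0.00428) at the same time as 1436359_at was higher by 1.86. Wildtype facial motor neurons read 9.40, 9.66 and 8.88 (−1.43, SE 0.25, adjusted p = 0.0016) and mutant facial ones 9.16, 9.56 and 10.36 (−0.93, SE 0.31, adjusted p = 0.0285). The mutant facial call was lost with a common median, without any of the 3 mutant tissue arrays or without mutant facial replicate 1 or 2 (highest adjusted p over all settings, 0.0877). Mutant spinal motor neurons, at 10.12, 10.12 and 10.41, did not pass (−0.40, 95% interval −0.83 to 0.02).

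For Gfra1 1450440_at wildtype tissue read 10.22, 10.07 and 9.95 and mutant tissue 10.45, 10.73 and 10.74. Motor neurons read 8.04, 6.81 and 8.76 in wildtype spinal, 6.73, 5.55 and 4.54 in mutant spinal, 8.12, 8.36 and 8.59 in wildtype facial and 5.17, 6.97 and 4.82 in mutant facial samples, so all mutant motor neuron arrays lay below near background. The differences were −2.21 (SE 0.51, adjusted p = 0.0076), −5.03 (SE 0.56, adjusted p = 5.5e-05), −1.72 (SE 0.27, adjusted p = 0.000806) and −4.99 (SE 0.58, adjusted p = 0.000109).

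Il6st 1452843_at was lower in wildtype spinal (−1.12, adjusted p = 0.00161), mutant spinal (−0.67, adjusted p = 0.0322) and mutant facial motor neurons (−1.29, adjusted p = 0.00127), and −1.03 did not pass in wildtype facial ones (adjusted p = 0.0676). With arrays scaled to a common median none of the 3 passed, and the mutant spinal difference turned to 0.14 (adjusted p = 0.614). That call was also lost without mutant tissue replicate 2 or 3 or mutant spinal replicate 2 or 3, and its groups overlapped. Il6st 1460295_s_at was lower in all 4 (−3.33, −4.77, −4.03 and −4.79), with every motor neuron group mean below near background.

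**Figure D3:**
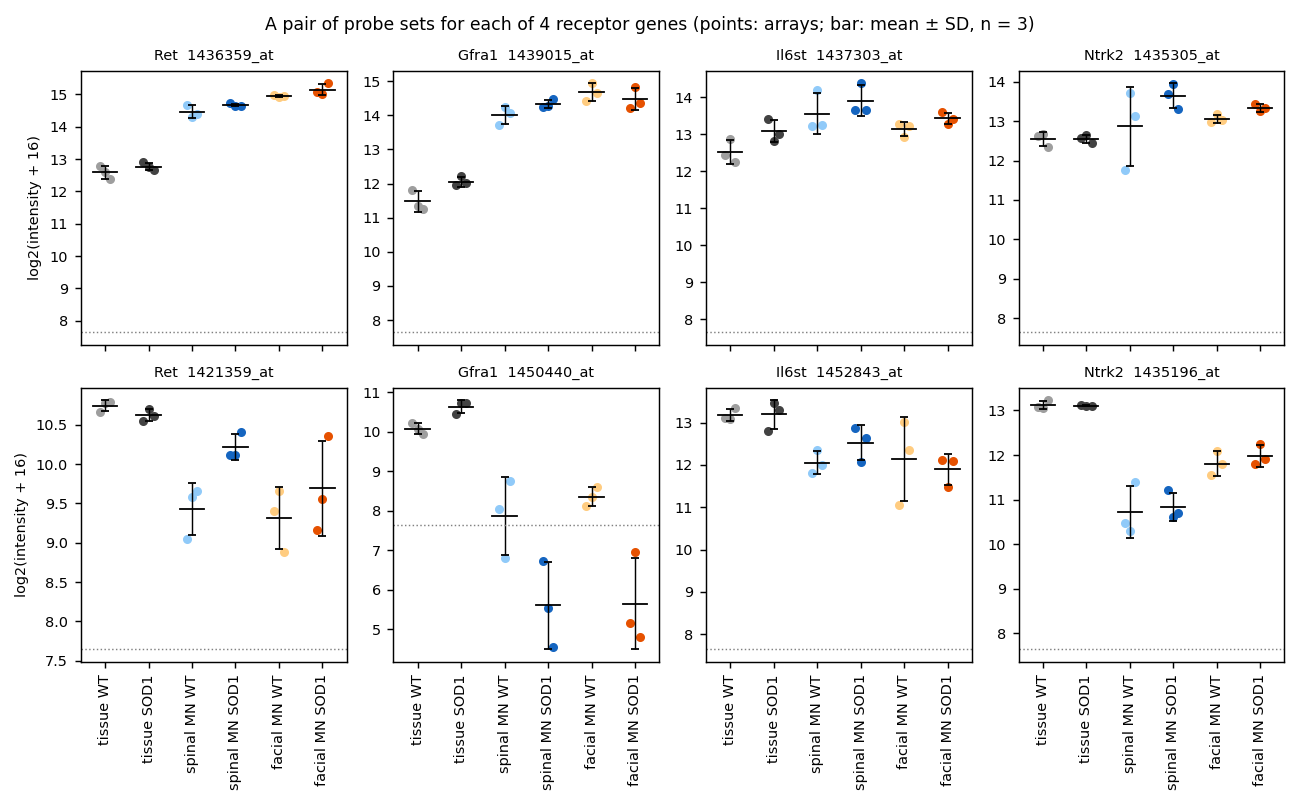
A pair of probe sets for each of Ret, Gfra1, Il6st and Ntrk2, as log2(intensity + 16) on each array by group with the mean and SD of 3 arrays; the upper probe set of each pair is higher and the lower one lower in motor neurons than in tissue, in the comparisons named in the text. For Gfra1 1450440_at all 6 mutant motor neuron arrays lie under the dotted near-background line at 7.65.

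Between spinal and facial motor neurons 1 call was made among the members over both genotypes. None of 26 tested members passed in wildtype mice, where 2.08% of all tested probe sets did, 7 had an unadjusted p under 0.05 (all probe sets, 19.1%), and 9 did not overlap between sites (all probe sets, 26.1%). In mutant mice 1 of 21 passed (all probe sets, 3.25%), 6 had an unadjusted p under 0.05 (18.4%), and 6 did not overlap (24.2%). That probe set was Ntrk2 1435196_at, which read 11.20, 10.61 and 10.70 in spinal and 11.79, 12.25 and 11.91 in facial mutant motor neurons. It was lower by 1.14 in spinal ones (difference −1.14, SE 0.25, adjusted p = 0.0321). Leaving out any of the 6 arrays ended the call (adjusted p 0.0514 to 0.105). In wildtype mice it read 10.48, 10.29 and 11.40 in spinal and 11.54, 12.09 and 11.80 in facial motor neurons, a difference of −1.09 that did not pass (adjusted p = 0.128).

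Ret 1436359_at was lower on every spinal than on every facial array of its genotype, by differences of −0.49 in wildtype (95% interval −0.80 to −0.18, adjusted p = 0.103) and −0.47 in mutant mice (−0.74 to −0.20, adjusted p = 0.0639), and neither passed. Cntfr 1419429_at lay on the other side, at 1.08 in wildtype (0.41 to 1.75, adjusted p = 0.0987) and 0.75 in mutant mice (0.16 to 1.34, adjusted p = 0.163), again with no overlap and no call. Igf1r 1428967_at was −1.03 (−1.85 to −0.22, adjusted p = 0.171) and −0.64 (−1.12 to −0.15, adjusted p = 0.153), also without overlap. For Gfra1 1439015_at the difference was −0.67 in wildtype (−1.09 to −0.25, adjusted p = 0.103) and −0.15 in mutant mice (−0.51 to 0.21). A fit of all 18 arrays, which shares one spread over the 6 groups, called 7 members in wildtype mice, with Ret (adjusted p = 0.0166), Gfra1 (0.0246), Cntfr (0.00563) and Igf1r (0.0145) among them, and in mutant mice it called Ret (0.0354) beside Ntrk2.

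**Figure D4:**
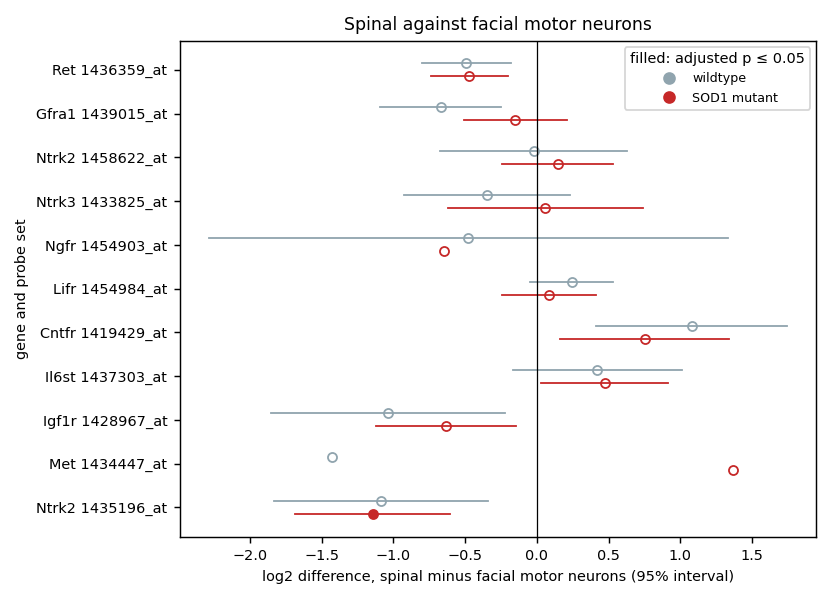
Spinal minus facial motor neurons (log2 difference with 95% interval) for the brightest probe set of each receptor gene and for Ntrk2 1435196_at, in wildtype and SOD1 mutant mice. Only Ntrk2 1435196_at in mutant mice is filled (adjusted p = 0.0321); Ret lies left and Cntfr right of 0 in both genotypes.

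No member differed between SOD1 mutant and wildtype samples at the threshold. The count was 0 of 32 tested in tissue, where 0.281% of all tested probe sets passed, 0 of 21 in spinal motor neurons (0.037%) and 0 of 25 in facial motor neurons (0%), by limma with adjustment over all tested probe sets. At an unadjusted p under 0.05 there were 3, 2 and 2 members, where 8.08%, 7.7% and 15.6% of all tested probe sets lay under it, and the smallest adjusted p-values were 0.291, 0.565 and 0.238. Groups did not overlap for 2 members in tissue (all probe sets, 13.9%), 3 in spinal (13.2%) and 7 in facial motor neurons (22%). The median difference of the members tested was 0.01, 0.26 and 0.11, beside −0.01, 0.01 and 0.02 over all tested probe sets.

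In tissue, Gfra1 had the smallest p-values of the members. Probe set 1439015_at was 0.58 higher in mutant tissue with no overlap (1.499-fold, 95% interval 0.23 to 0.93, unadjusted p = 0.00395, adjusted p = 0.303), and 1450440_at 0.56 higher (adjusted p = 0.291), neither a call. Il6st 1437303_at stood 0.57 higher (1.48-fold, 0.16 to 0.97, adjusted p = 0.424) with overlapping arrays. Microglial markers moved with genotype in the same tissue: 10 of 10 were higher in mutant tissue and 4 passed, with summed intensities of 50500 to 54900 in wildtype and 74400 to 79900 in mutant arrays; their part in the Gfra1 and Il6st values was not tested. Ret differed by 0.17 (−0.10 to 0.45), Lifr by 0.13 (−0.08 to 0.34), Ntrk3 by 0.00 (−0.22 to 0.22) and Ntrk2 by −0.01 (−0.33 to 0.31).

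In spinal motor neurons the brightest probe sets differed by 0.22 for Ret (95% interval −0.11 to 0.54), 0.32 for Gfra1 (−0.07 to 0.71), 0.28 for Ntrk2 (−0.30 to 0.86), −0.02 for Lifr (−0.33 to 0.29), 0.05 for Cntfr (−0.63 to 0.73), 0.34 for Il6st (−0.30 to 0.98) and 0.26 for Igf1r (−0.55 to 1.06). The intervals still allow changes of more than 1 log2 unit for Igf1r. Ntrk3 1447723_at had the smallest unadjusted p, with wildtype arrays at 6.60, 8.81 and 9.23 and mutant arrays at 11.45, 9.86 and 10.58 (difference 2.42, SE 0.69, unadjusted p = 0.00535, adjusted p = 0.565). The arrays did not overlap. Summed microglial markers were 5840 to 21600 in wildtype and 41700 to 52000 in mutant spinal motor neurons, and the beta-actin ratio was 46.4 ± 9.07 and 30.7 ± 7.35 (SD, n = 3 each); their part was not tested.

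In facial motor neurons Ret was 0.19 higher in mutant mice with no overlap between 14.92 to 14.97 and 15.02 to 15.35 (95% interval −0.05 to 0.44, adjusted p = 0.430). Cntfr was 0.38 higher, again with no overlap (−0.19 to 0.95, adjusted p = 0.505), and Il6st 0.29 higher (−0.06 to 0.64, adjusted p = 0.397). Gfra1 1439015_at differed by −0.20 (−0.60 to 0.21) and Lifr by 0.14 (−0.18 to 0.46). Array weights, which give noisy arrays less say, called 3 members here: Gfra1 1421973_at (−1.90, adjusted p = 0.0215), Ntrk2 1435305_at (0.32, adjusted p = 0.0348) and Igf1r 1452108_at (2.89, adjusted p = 0.00718). The beta-actin ratio was 67.6 ± 7.42 in wildtype and 39.8 ± 17 in mutant facial motor neurons (SD, n = 3 each), and its part was not tested.

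Gfra1 1450440_at had means below the brightness filter in both genotype comparisons of motor neurons and was not tested there. The mutant group mean was 5.61 against 7.87 in spinal and 5.65 against 8.36 in facial motor neurons, with no overlap at either site. Without the filter the differences were −2.26 (adjusted p = 0.676) and −2.70 (adjusted p = 0.220), and in the fit of all 18 arrays the facial difference passed (adjusted p = 0.0335) and the spinal one did not (adjusted p = 0.0988). The genotype difference in facial motor neurons minus that in tissue was −3.26 (SE 0.67, adjusted p = 0.0694), the smallest of the members in any comparison of genotype effects. None passed in those 3 comparisons: 0 of 29 members for spinal motor neurons against tissue (all probe sets, 0.0185%), 0 of 30 for facial motor neurons against tissue (0.27%) and 0 of 23 between the sites (0.0037%). At an unadjusted p under 0.05 there were 4, 6 and 2, against 7.77%, 14.7% and 8.86% of all tested probe sets. The brighter Gfra1 probe set 1439015_at gave −0.78 for facial motor neurons against tissue (SE 0.27, adjusted p = 0.208). Other untested members also did not overlap between genotypes, among them Igf1r 1446303_at in spinal motor neurons (−2.88 without the filter, adjusted p = 0.546).

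**Figure D5:**
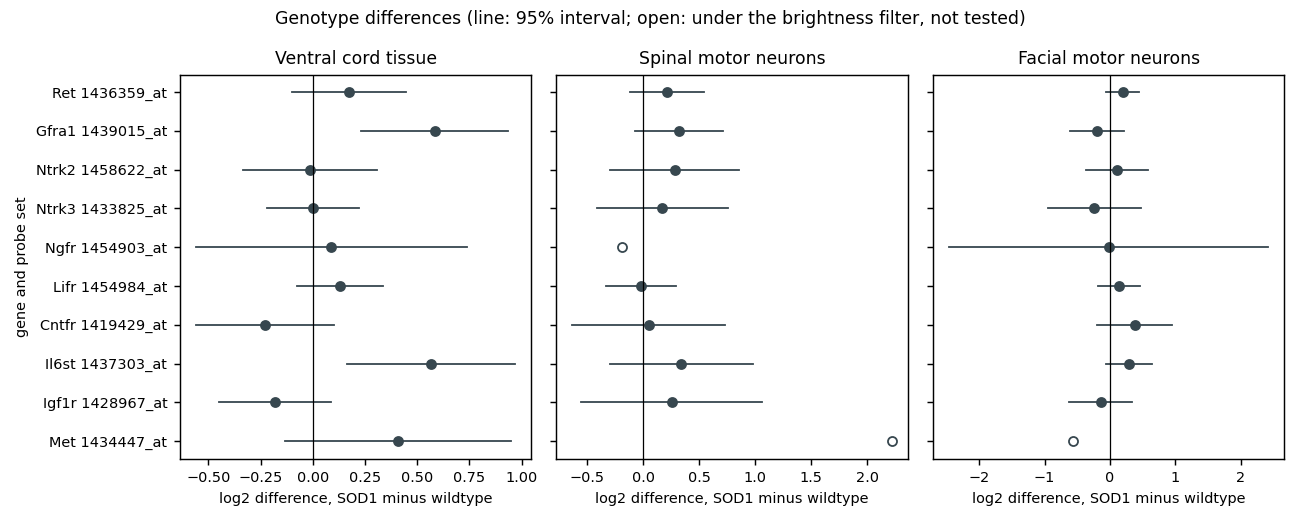
SOD1 mutant minus wildtype (log2 difference with 95% interval) for the brightest probe set of each receptor gene in ventral cord tissue, spinal motor neurons and facial motor neurons; each panel has its own horizontal scale. Gfra1 and Il6st in tissue lie to the right of 0 with intervals that do not reach it, and none of the values passed after adjustment.

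Wildtype and mutant arrays are separate samples, so the calls of motor neurons against tissue can be set side by side. At the spinal site 14 members were called in the same direction in both genotypes, 73.7% of the 19 in wildtype and 73.7% of the 19 in mutant mice. At the facial site it was 15, which is 78.9% of 19 and 71.4% of 21. No member was called in opposite directions. Over all probe sets tested in the wildtype comparison the shares were 86% and 72.9% at the spinal and 76% and 80.9% at the facial site. Mutant calls of probe sets untested in wildtype are counted for the members only, so the mutant shares have unlike bases.

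The rest of the pathways was read at the brightest probe set of each gene, where 51.6%, 61.9%, 61.5% and 59.2% of all genes tested passed in wildtype spinal, mutant spinal, wildtype facial and mutant facial motor neurons. Of all genes tested 31.1%, 37.5%, 36.7% and 36.1% passed as higher in that order and 20.6%, 24.5%, 24.8% and 23.1% as lower. Of 18 ligands 14 could be matched. Bdnf, the ligand of Ntrk2, was higher in motor neurons in all 4 comparisons, by 2.05 in wildtype spinal (4.15-fold, SE 0.44, adjusted p = 0.00575), 1.64 in mutant spinal (3.11-fold), 1.16 in wildtype facial (2.24-fold) and 1.28 in mutant facial motor neurons (2.43-fold). With values as deposited the facial differences were 0.37 and 0.43 and did not pass, and the wildtype facial call was also lost without wildtype tissue replicate 2 or 3 or wildtype facial replicate 3. Igf1 was lower in all 4, with differences of −3.27, −3.32, −1.34 and −2.09, and so was Igf2, with −7.47, −6.28, −4.12 and −6.74, of which the wildtype facial call was lost in 8 of 17 settings, among them without any wildtype tissue array (highest adjusted p = 0.114). Nrtn, a ligand of the GDNF family, was higher in mutant facial motor neurons (1.90, adjusted p = 0.000136); its mutant spinal call (0.78, adjusted p = 0.0485) was lost in 12 of 17 settings, among them without any mutant tissue array or without mutant spinal replicate 2 or 3 (adjusted p up to 0.996). Artn, of the same family, was higher in wildtype facial motor neurons (2.26), a call lost without wildtype tissue replicate 2 or 3 (highest adjusted p = 0.0809). Gdnf itself had group means of 4.76 to 5.17, under near background everywhere.

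IGF binding proteins hold insulin-like growth factors outside the cell, and all 8 genes of their list, which also held Igfals, were matched. The 6 tested (Igfbp2, Igfbp3, Igfbp4, Igfbp5, Igfbp6 and Igfbp7) were called lower in motor neurons in each of the 4 comparisons, with list medians of −3.03, −3.31, −1.78 and −3.73. The Igfbp5 difference was −3.49 and −2.96 in wildtype spinal and facial motor neurons and that of Igfbp2 −3.01 and −2.95. The wildtype facial call of Igfbp5 was lost with a common median and without any wildtype tissue array (highest adjusted p = 0.0792), and that of Igfbp3 in the fit of all 18 arrays (adjusted p = 0.0512). The small spinal differences of Igfbp4 (−0.54 and −0.63) turned to 0.02 and 0.05 with a common median, and neither passed without wildtype tissue replicate 1, 2 or 3 for the former and mutant tissue replicate 1 or 3 for the latter. The 5 matched endothelial markers summed to 14000 to 17900 on tissue and 1960 to 5040 on motor neuron arrays, the 6 mural and fibroblast markers summed to 71200 to 129000 and 7530 to 42800, and their part was not tested. In mutant mice Igfbp2, Igfbp4 and Igfbp5 were higher in spinal than in facial motor neurons (1.44, 1.39 and 1.32) and Igfbp6 lower (−2.00), where 4.21% of all genes tested passed. Leaving out 1 array ended each of these 4 calls: any of the 6 for Igfbp2, any but mutant facial replicate 1 for Igfbp5, any but mutant facial replicate 2 for Igfbp4, and mutant spinal or mutant facial replicate 1 or 3 for Igfbp6 (highest adjusted p with 1 array left out or in another setting, 0.250).

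Among other receptors, 12 of 14 were matched. Lingo1, a partner of Ngfr in a complex that restrains axon growth, was higher in all 4 motor neuron groups, by 1.64, 1.85, 0.83 and 1.52. Sort1, the sorting receptor for pro-neurotrophins, was lower in all 4 (−1.16, −0.88, −1.36 and −1.28), as were Gfra4 (−1.85, −1.04, −2.08 and −1.53) and Ncam1 (−2.69, −1.63, −1.02 and −0.94). Scaling changed part of this: with a common median Sort1 was at −0.23, 0.08, −0.40 and −0.26 and Ncam1 in facial motor neurons at −0.11 and 0.01, and with values as deposited Lingo1 in wildtype facial ones was at 0.15, none of them a call. Wildtype spinal motor neurons had 1 higher and 4 lower of 12 tested, mutant spinal 1 and 4 of 11, wildtype facial 2 and 5 of 11 and mutant facial 1 and 6 of 10. Of 6 matched partners of Ngfr, Traf6 was higher in all 4 (1.99, 1.39, 1.46 and 1.21) and Rhoa (−1.20, −1.24, −1.34 and −1.35) and Maged1 (−1.28, −0.58, −1.25 and −0.81) lower. With a common median no Rhoa difference passed (−0.03, −0.10, −0.18 and −0.11) and Maged1 was at −0.06, 0.61, 0.01 and 0.51, the mutant values now called higher, so the direction of Maged1 depends on the scaling. Traf6 did not pass with values as deposited in mutant spinal (0.62), wildtype facial (0.67) and mutant facial motor neurons (0.36).

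Of 30 signal transducers 23 were matched, with 3 higher and 7 lower in wildtype spinal, 9 and 7 in mutant spinal, 8 and 8 in wildtype facial and 6 and 6 in mutant facial motor neurons. Jak1, the kinase that Il6st signals through, was higher in all 4 (1.64, 1.56, 1.32 and 1.44), whereas the small GTPase Nras was lower in all 4 (−1.99, −1.77, −1.81 and −1.43). Gab1, a docking protein of Met and other receptor kinases, was lower in all 4 (−2.10, −1.95, −2.31 and −2.24), as were the phosphatase Ptpn11 (−1.34, −0.96, −1.38 and −1.10) and Pik3r1 (−2.31, −1.78, −1.96 and −1.50). With a common median Ptpn11 was at −0.08, 0.24, −0.12 and 0.20, of which the mutant spinal value passed as higher (adjusted p = 0.0388), and the mutant facial difference of Nras was −0.59 without a call. Feedback inhibitors and target genes, 17 of 18 matched, gave 2 higher and 4 lower, 5 and 4, 4 and 8, and 3 and 4. Vgf, a neuronal target of BDNF, was higher in all 4 (1.33, 2.68, 1.79 and 1.36) and the growth-cone gene Gap43 lower (−3.92, −2.38, −2.32 and −1.99). The inhibitors Spry2 (−1.97, −1.53, −1.65 and −1.71) and Dusp6 (−1.31, −0.95, −1.23 and −1.63), both known to be induced by the pathway they restrain, were lower in all 4, and the mutant spinal call of Dusp6 was lost with a common median and without any mutant tissue array (highest adjusted p = 0.231). Socs3, the feedback inhibitor of Il6st signalling, was higher in mutant spinal (2.68, adjusted p = 0.000331) and wildtype facial motor neurons (2.34, adjusted p = 0.00101).

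Between sites, 0 genes of the ligand and other-receptor lists passed in either genotype. In wildtype mice Igfbp6 (−1.97, adjusted p = 0.0319) and Bex1, a partner of Ngfr (−3.85, adjusted p = 0.00163), were lower in spinal motor neurons, where 2.52% of all genes tested passed. Mutant mice gave higher spinal values of Socs3 (2.36, adjusted p = 0.00393), Vgf (1.32, adjusted p = 0.00446), Etv5 (0.87, adjusted p = 0.0399) and Plcg1 (0.99, adjusted p = 0.0433), and Bex1 was lower (−5.68, adjusted p = 0.0255). Of 10 microglial markers 7 also passed as higher there, with sums of 41700 to 52000 in mutant spinal and 12200 to 14600 in mutant facial samples. Among 9 astrocyte markers Gfap and Aqp4 passed as higher. The part of such cells in the differences between sites, the IGF binding proteins included, was not tested. The wildtype Igfbp6 call was lost without wildtype spinal replicate 3 or wildtype facial replicate 2 or 3, the mutant Bex1 call without any mutant facial array, the Etv5 call without any of the 6 arrays and the Plcg1 call without any but mutant facial replicate 1 (adjusted p up to 0.227). Without the mean-variance trend the mutant Socs3 and Vgf calls (adjusted p = 0.0804 and 0.141) and the wildtype Bex1 call (adjusted p = 0.0520) were lost. No gene of the 6 lists passed between genotypes in tissue, spinal or facial motor neurons, where 0.46%, 0.0537% and 0% of all genes tested did. In the genotype effect of facial motor neurons minus that of tissue, Igfbp3 was called lower, where 0.27% of all tested probe sets passed. That call was lost without any tissue array (highest adjusted p = 0.119) and in the fit of all 18 arrays (−4.65, adjusted p = 0.0613).

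A last question was which genes had a pattern over the 6 group means most like that of a receptor, among 12871 genes, after each was centred on its own mean; this was computed for Ret, Gfra1 and Met, whose group means span at least 2 log2 units. For Ret, with a span of 2.55, the nearest were Wnt9a, Gng4 and Bean1, with root mean square distances of 0.067, 0.073 and 0.078. Gng4, a G protein subunit, ran from 13.27 in wildtype tissue to 15.98 in mutant facial motor neurons. For Gfra1, with a span of 3.20, they were Ube2t, Enox2 and Mir22hg (0.126, 0.128 and 0.133). Met, with a span of 3.19, was nearest to Ecm1, Ctsc and F11r (0.158, 0.175 and 0.257). Its group means rest on uneven arrays, with SDs of 1.81 in wildtype spinal and 2.48 in wildtype facial motor neurons. Only 3 of the 6 Met means lay at or above near background, and Ctsc had an SD of 3.38 in wildtype spinal motor neurons. The 6 means share arrays and normalization, and the distances are a description.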

How the data were processed

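The authors deposited 1 series table of linear intensities, with 45101 probe sets as rows and 18 arrays as columns; how scanner images became these intensities was not given in the sources used here. The mean after trimming 2% at each end was 2500 on every array. Arrays have no read depth, and 3 arrays a group limit the precision. Gene symbols came from GEO's annotation of the platform: 34945 had 1 symbol, 932 several and 9160 none, and 64 were controls.

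Intensities were converted to log2(intensity + 16), quantile normalized over the 18 arrays and tested in R 4.3.3 by limma 3.58.1 (lmFit, eBayes with a mean-variance trend), using only the arrays of the groups compared. A fit left out its dimmest probe sets, those whose mean fell below the 40th percentile, and p-values were adjusted by Benjamini-Hochberg over all 27022 tested, with a threshold of 0.05; tests are two-sided and SE is that of the log2 difference. There were 12 comparisons: genotype in 3 sample kinds, motor neurons against tissue in 4, sites in 2 and differences of genotype effects in 3. No fold is given where a group mean lay under 7.65. The text names every member and, of each pathway list, genes among the 4 smallest p-values past the threshold in a comparison; Gdnf is named beside them. Members and lists were chosen with earlier results of these data known. The fit was tested on simulated data. Same-numbered replicates showed little common deviation (correlations −0.0162 to 0.0497). The labels state no pairs, so none was used in the fits. Such correlations cannot show whether same-numbered samples share an animal. Alternatives changed the scaling, pseudocount, filter, probe set choice, model, array weights, block and arrays.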

Additional observations from a re-analysis of the deposited data

How the results depend on the processing

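Counts of called receptor probe sets were recomputed under each alternative. With 1 probe set a gene the members number 10, and 5, 6, 6 and 5 were called in wildtype spinal, mutant spinal, wildtype facial and mutant facial motor neurons against tissue, in place of 19, 19, 19 and 21. Array weights, whose estimation stopped short of its tolerance in some fits, called 3 for genotype in facial motor neurons, 9 for wildtype spinal against facial and 2 for mutant spinal against facial, and a fit of all 18 arrays called 1, 7 and 2, in place of 0, 0 and 1. For mutant spinal against facial, a common median and a filter at the 60th percentile gave 2, and no mean-variance trend or a replicate block gave 0. For facial motor neurons against tissue in their genotype effects, the deposited scaling, a pseudocount of 64, array weights and the actin ratio as a covariate gave 1 in place of 0. Il6st 1452843_at reversed from −0.67 to 0.14 in mutant spinal motor neurons under a common median. Of 123 calls of the pathway genes named, 78 were kept in every alternative, 18 were lost when 1 array was left out, and 9 reversed under a common median: Igfbp4 (0.020 and 0.047), Sort1 (0.084), Ncam1 (0.0089), Ptpn11 (0.24 and 0.20) and Maged1 (0.61, 0.0067 and 0.51). The cause of these changes was not tested. Deposited scaling shifted the median of all probe sets in motor neurons against tissue from 0.04, 0.08, 0.09 and 0.11 by −0.51, −0.44, −0.48 and −0.50, and a common median by 0.31, 0.34, 0.36 and 0.39; of 40 members 13, 14, 14 and 14 were higher as reported, 9, 10, 12 and 12 as deposited and 16, 16, 17 and 15 with a common median.

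Leaving out 1 array gave 14 to 21, 16 to 21, 15 to 23 and 13 to 20 calls for the 4 comparisons with tissue. The 13 came without mutant tissue replicate 2 or replicate 3. It gave 0 in every case for genotype in tissue, spinal and facial motor neurons, for both comparisons of sites and for genotype effects between sites. For genotype effects in spinal motor neurons against tissue it gave 0 to 4, with 4 without wildtype spinal replicate 2, and in facial motor neurons against tissue 0 to 2, with 1 without wildtype facial replicate 1 and 2 without mutant facial replicate 2. The labels state no pairing by replicate number. With that number as a block, counts were 17, 19, 19 and 20 against tissue and 0 elsewhere. The block ended the mutant call of Ntrk2 1435196_at between sites (adjusted p = 0.0625).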
